A study of Mus musculus with 18 samples.

Results

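The genes described here were 10 genes of the contractile apparatus and of the transcription programmes that control it: ACTA2, ACTG2, TAGLN, CNN1, MYL9, TPM1, TPM2, CTGF, CYR61 and SRF. They were taken by name, as every probe of the array table that carries one of these names, and this matching used no measured value. The list of names was itself chosen with earlier results of these data known. The table held 23 such probes. Of the 10 genes, 8 were detected on enough arrays to be tested, among 16446 genes tested in all. CTGF and CYR61 are the names of the array design, and the current symbols are Ccn2 and Ccn1.

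Smooth muscle actins, calponin, transgelin, the regulatory myosin light chain and the tropomyosins build and regulate the stress fibres of smooth muscle cells and of contractile stromal cells such as myofibroblasts. Serum response factor (SRF) binds CArG boxes in the promoters of many of these genes, together with cofactors of the myocardin family that are held back by monomeric actin. YAP and TAZ, the effectors of the Hippo pathway, act through TEAD factors, and CTGF and CYR61, secreted matricellular proteins, are their most used reporter genes. Both programmes respond to cell tension, and fibroblast growth factors are known to lower smooth muscle genes in mesenchymal cells while ligands of the TGF-beta family tend to raise them.

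Expression was measured with 1-colour Illumina bead arrays in 18 cultures of day 3, in 6 groups with 3 replicates each. ES/PA6 co-cultures held mouse ES (embryonic stem) cells, a knock-in line that expresses EGFP from the τ promoter, on a layer of the stromal line PA6, and PA6 mono-cultures held PA6 cells alone. The serum-free medium of either culture type had no growth factor (-GFs), 20 ng/ml of FGF2, or 10 ng/ml of BMP4. These doses are those of the labels, and the study's methods give a lower dose of BMP4. The labels describe each biological replicate as a set of wells, with every medium and both culture types, and the same number is called a replicate set here. RNA of a co-culture came from ES-derived and PA6 cells together, both of mouse, so that a probe cannot assign a signal to either of them. In such bulk samples, fewer cells of a type and less RNA per cell cannot be told apart.

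To show which of these genes carry the binding sites named above close to their start, promoter sequences of RefSeq (GRCm38.p6, 250 bases before to 50 bases after the annotated start) were searched on both strands. A window was given for 7 of the 10 genes, and not for ACTG2, TAGLN and CTGF. The motifs were the CArG box, a CArG-like box with a single G or C among its 6 central bases, and the TEAD motif GGAATG, which the opposite strand shows as CATTCC. No match overlapped another in these windows, although the ends of a CArG box and of a TEAD motif can share bases. The stretches that hold the matches, from base -170 to base -21 before the start, are printed 5′ to 3′ on the gene's strand, with matches in capitals.
ACTA2 promoter, chr19:34255394-34255543, minus strand: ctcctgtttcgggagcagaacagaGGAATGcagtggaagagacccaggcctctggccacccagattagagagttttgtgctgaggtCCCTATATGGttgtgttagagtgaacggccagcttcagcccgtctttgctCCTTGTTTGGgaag
MYL9 promoter, chr2:156775294-156775443, plus strand: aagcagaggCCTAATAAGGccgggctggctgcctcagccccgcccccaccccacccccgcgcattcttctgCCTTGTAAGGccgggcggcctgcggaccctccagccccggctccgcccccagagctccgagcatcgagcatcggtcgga
SRF promoter, chr17:46556183-46556332, minus strand: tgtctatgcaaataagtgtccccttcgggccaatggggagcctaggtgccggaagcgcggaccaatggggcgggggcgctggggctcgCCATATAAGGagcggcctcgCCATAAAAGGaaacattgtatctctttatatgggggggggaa
TPM1 promoter, chr9:67049234-67049383, minus strand: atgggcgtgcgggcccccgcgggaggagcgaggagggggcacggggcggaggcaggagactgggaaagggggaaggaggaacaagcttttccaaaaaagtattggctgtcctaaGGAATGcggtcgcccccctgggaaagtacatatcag
CYR61 promoter, chr3:145650006-145650155, minus strand: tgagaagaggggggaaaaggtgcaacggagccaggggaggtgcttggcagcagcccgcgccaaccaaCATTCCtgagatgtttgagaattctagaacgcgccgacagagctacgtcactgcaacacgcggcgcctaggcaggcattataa
MYL9 and SRF, the gene of the factor itself, held CArG boxes. MYL9 had 1, with its first base at -161, and a CArG-like box at -99, while SRF had 2, at -82 and -62. ACTA2 held 2 CArG-like boxes, at -84 and -34, and a TEAD motif at -146. TPM1 and CYR61 held a TEAD motif each, at -56 and -103. Over 32851 windows of this length, 1.63% held a CArG box, 8.5% a CArG-like box and 14.7% the TEAD motif. CNN1 and TPM2 held none of the 3 motifs in this window. A match is a description of the letters and was not tested as a binding site.

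**Figure D1:**
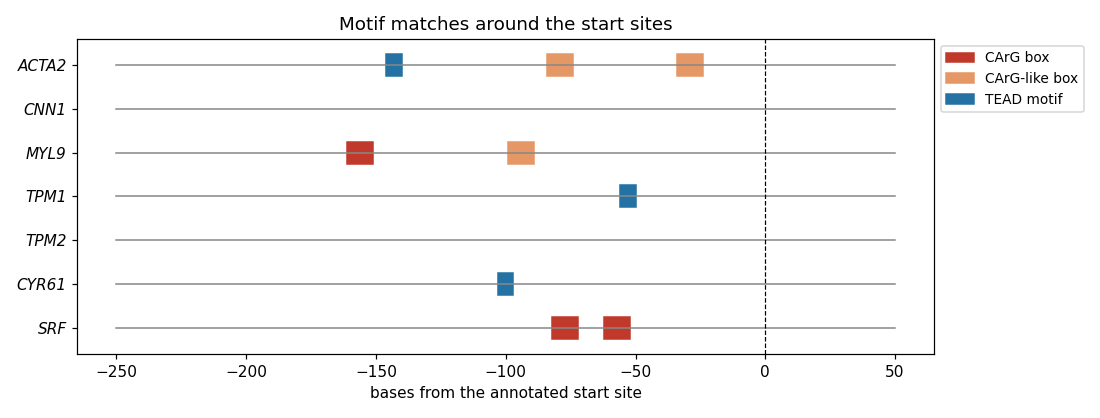
Position of motif matches in the promoter windows of the 7 genes with a RefSeq window. The x axis gives bases from the annotated start and each coloured block is a match. Matches lie before the start in 5 genes, between -161 and -25, and CNN1 and TPM2 have none.

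The stromal and pluripotent markers followed the culture labels. All 10 stromal markers tested were lower in -GFs co-cultures than in -GFs mono-cultures, 8 of them called, and all 10 pluripotent markers were called higher. Of all genes, 39.0% were called in this comparison. In each mono-culture group, 7 or 8 of the 10 pluripotent markers were detected on no array. MYH11, the smooth muscle myosin heavy chain, and RGS5, a pericyte gene, were not detected on enough arrays to be tested. Between 17125 and 20412 probes per array were detected, and arrays of a group correlated at 0.981 to 0.992.

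TAGLN and CNN1, classical markers of differentiated smooth muscle, were at or near the level of the array background. TAGLN was detected on 0 of 18 arrays by ILMN_1215145, with raw intensities of 78.1 to 112, and on 2 of 18 arrays by ILMN_1243652, with 111 to 254. Those 2 were the replicate 3 arrays of the -GFs and BMP4 co-cultures, at 193 and 254. The CNN1 probe ILMN_1221148 was detected on 0 of 18 arrays, at 90.5 to 146. These probes gave no evidence on the genes beyond that, and both genes were left out of the tests. Each of the other 8 genes was read by a probe detected on all 18 arrays, and the probe with the largest mean level stood for the gene. Of the 17 probes of these genes that were kept, 15 were detected on all arrays, ILMN_1235571 of CYR61 on 15 arrays and ILMN_2482209 of TPM2 on 3 arrays.

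One feature of the arrays touches every result on the co-cultures. Replicate set 1 of the co-cultures was low for most members in all media. On its -GFs, FGF2 and BMP4 arrays, 7, 7 and 8 of the 8 genes lay below the mean of their group, with lowest departures of -1.62, -1.56 and -1.45 on the log2 scale. On the -GFs, FGF2 and BMP4 arrays of set 3, 8, 6 and 8 of the 8 genes lay above it. ACTA2 of set 3 exceeded that of set 1 by 2.79, 2.84 and 2.62 in these media, more than any growth factor difference of ACTA2 within a set. The spread between replicate arrays of co-cultures, pooled over the 3 media, was 1.41 for ACTA2, 1.11 for MYL9, 0.96 for CYR61 and 0.87 for ACTG2. Among all 16446 genes, whose median was 0.24, these spreads have percentiles of 99.9, 99.7, 99.5 and 99.3. In the mono-cultures, the same spread was 0.26 for ACTA2 and 0.28 for MYL9, with percentiles of 68.1 and 73.4. SRF had one of the smallest spreads in the co-cultures, 0.08, with a percentile of 3.13. The 10 stromal markers had median departures of -0.01, 0.08 and -0.13 in set 1, against -0.56, -0.78 and -0.59 for the 8 genes. Pluripotent markers stood the other way on these arrays, with 0, 1 and 2 of 10 below their group mean and medians of 0.21, 0.12 and 0.03. The part of these markers in the low set was not tested. In the list of 29 other contractile genes, 25, 16 and 25 lay below their group mean there. The results on co-cultures are therefore given as levels of each set, with the replicate set as a block and without set 1 where the call changes. Set 1 was left out after its low levels of these same genes had been seen, so a call without it is no independent support.

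**Figure D2:**
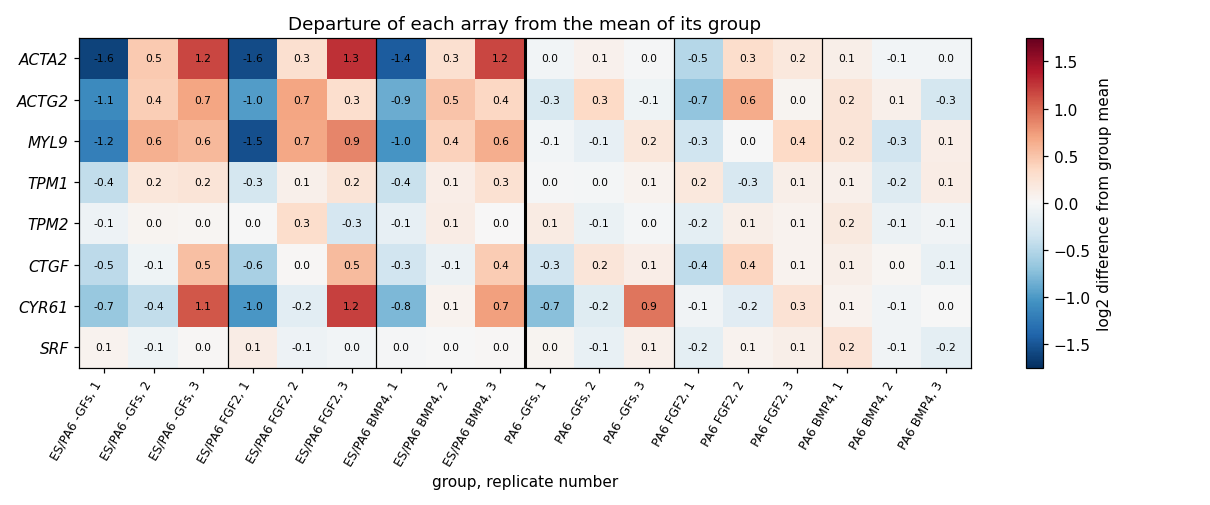
Departure of each array from the mean of its group on the log2 scale, for the 8 tested genes (rows) and the 18 arrays (columns: group and replicate number). ACTA2, ACTG2, MYL9 and CYR61 are low (blue) on the replicate 1 arrays of all 3 co-culture groups, and the mono-culture arrays (right of the thick line) vary less for ACTA2 and MYL9.

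A gene was called when its adjusted p was under 0.1 and its log2 fold change exceeded 1 in size. In the co-cultures FGF2 left 0 of the 8 genes called against a background of 3.34% of all genes, although 7 of them had a lower mean. Their median log2 fold change was -0.53, against -0.01 over all genes. At an unadjusted p under 0.05, 1 gene was lower, MYL9. The arrays of both groups overlapped for all 8, against 19.3% of all genes without overlap. BMP4 called 0 of the 8 in co-cultures (background 0.760%), with 6 higher means, a median of 0.15, no unadjusted p under 0.05 and no gene without overlap (background 13.0%). In the mono-cultures FGF2 called 2 of the 8, CTGF and CYR61, both higher, against a background of 5.27%, and the median of the 8 was 0.03 (-0.01 over all genes). The arrays did not overlap for 5 of the 8 genes there, against 33.8% of all genes. BMP4 called 0 of the 8 in mono-cultures (background 1.41%), with a median of 0.12 (0.01 over all genes), unadjusted p-values under 0.05 for 2, TPM1 and CTGF, and 3 genes without overlap (background 21.5%). Every comparison with the -GFs arrays shares those arrays. With the replicate set as a block, FGF2 called 1 of the 8 in co-cultures (background 3.55%) and 4 in mono-cultures (background 5.39%). BMP4 called 0 of the 8 with the block in either culture type (backgrounds 1.31% and 1.68%).

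**Figure D3:**
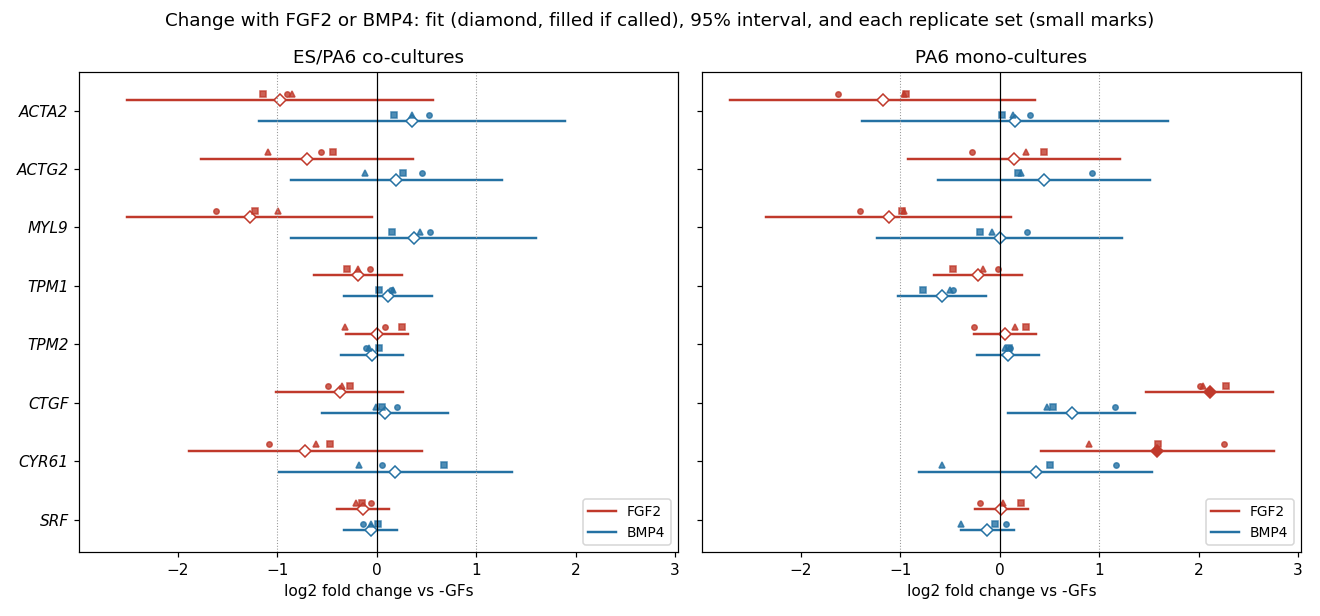
Change of the 8 genes with FGF2 (red) and BMP4 (blue) against -GFs on the log2 scale. Diamonds with lines are the fitted change and its 95% interval, filled where called, and small marks are the differences within replicate set 1 (circle), 2 (square) and 3 (triangle). CTGF and CYR61 rise with FGF2 in the mono-cultures and do not in the co-cultures, while ACTA2 and MYL9 lie below 0 with FGF2 in all 3 sets of both.

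ACTA2, the smooth muscle alpha-actin, was lower with FGF2 in every replicate set of both culture types. In the co-cultures, sets 1, 2 and 3 were at 11.74, 13.82 and 14.53 log2 units in -GFs medium. With FGF2 they were at 10.84, 12.68 and 13.68. With BMP4 they were at 12.27, 14.00 and 14.89. The sets lie further apart than the media, and the groups overlap. Within a set, FGF2 arrays were below -GFs arrays by 0.90, 1.15 and 0.85, and BMP4 arrays were above by 0.53, 0.18 and 0.36. The FGF2 change was -0.97 (SE 0.73, 95% interval -2.51 to 0.57, adjusted p = 0.566). With the replicate set as a block its adjusted p was 0.00192, and the change stayed just under the fold threshold.

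In the mono-cultures ACTA2 was tight in -GFs medium, at 13.85, 13.97 and 13.87. FGF2 brought 12.22, 13.03 and 12.90, and BMP4 14.15, 14.00 and 14.00. All FGF2 arrays lay below all others of the mono-cultures, and the change was -1.18 (SE 0.73, 95% interval -2.72 to 0.36, adjusted p = 0.343). That SE comes from all 18 arrays, the co-cultures with their larger spread included. With the mono-culture arrays alone the adjusted p was 0.00288, and with the block 0.00025, so that the gene was called in both. The other 3 kept probes of ACTA2 gave FGF2 changes of -0.96, -1.27 and -1.02 in mono-cultures and of -1.14, -1.27 and -1.14 in co-cultures. The FGF2 change differed between the culture types by 0.21 (95% interval -1.97 to 2.39, adjusted p = 0.932). That interval holds a large difference in either direction, but it is from the model without the block and includes the shifts between replicate sets. Within sets 1, 2 and 3 the FGF2 change was -0.90, -1.15 and -0.85 in co-cultures and -1.63, -0.95 and -0.97 in mono-cultures. Over the alternatives, the block included, the adjusted p of this difference was at least 0.578.

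Against BMP4, ACTA2 with FGF2 was lower by 1.43, 1.32 and 1.21 in the 3 co-culture sets and by 1.93, 0.97 and 1.10 in the mono-culture sets. The fitted differences were -1.32 (adjusted p = 0.381) and -1.33 (adjusted p = 0.263). Both were called with the block, at adjusted p = 0.000288 and 8.64e-05, the first also without set 1 (-1.27, adjusted p = 0.0829) and the second also with the mono-culture arrays alone (adjusted p = 0.00131). In this contrast of both growth factors, 0 of the 8 genes were called in co-cultures (background 2.85%) and 1 in mono-cultures, CTGF (background 5.82%). In co-cultures MYL9 alone had an unadjusted p under 0.05, and 0 of the 8 were without overlap (background 18.8%). In mono-cultures 4 of the 8 were without overlap (background 33.1%). The medians of the 8 were -0.67 and 0.05.

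Between the culture types in -GFs medium, ACTA2 did not differ beyond its spread: -0.53 in co-cultures relative to mono-cultures (95% interval -2.07 to 1.01, adjusted p = 0.538). This value rests on set 1. Without that set of co-cultures the difference was 0.28 (adjusted p = 0.485). Stromal markers were lower in all 10 cases in the same comparison, with a median of -1.59.

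ACTG2, the smooth muscle gamma-actin, was lower with FGF2 than in -GFs medium in all 3 co-culture sets and in 1 of the 3 mono-culture sets, and it was called in neither. In co-cultures it was at 8.32, 9.88 and 10.13 in -GFs medium, at 7.76, 9.43 and 9.04 with FGF2 and at 8.78, 10.14 and 10.01 with BMP4. Set 1 was again the lowest in each medium. Within each set the FGF2 array was below the -GFs array, by 0.56, 0.44 and 1.09, with a fitted change of -0.70 (SE 0.50, adjusted p = 0.547, and 0.072 with the block but under the fold threshold). In mono-cultures it was at 9.70, 10.31 and 9.89 in -GFs medium, at 9.42, 10.76 and 10.15 with FGF2 and at 10.63, 10.49 and 10.10 with BMP4. The FGF2 array was below the -GFs array in set 1, by 0.28, and above it in the other sets. Arrays overlapped in every pair of media in both culture types. The FGF2 change in mono-cultures was 0.14 (95% interval -0.92 to 1.21), and the co-culture change minus this one was -0.84 (adjusted p = 0.530). In -GFs medium the culture types differed by -0.52 (adjusted p = 0.375), and by 0.037 without set 1.

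MYL9, the regulatory light chain of smooth muscle and non-muscle myosin, had the lowest FGF2 change of the 8 genes in co-cultures. Sets 1, 2 and 3 were at 8.73, 10.55 and 10.50 in -GFs medium and at 7.11, 9.32 and 9.50 with FGF2. BMP4 gave 9.26, 10.70 and 10.93. As for ACTA2, the groups overlap because set 1 is low, while FGF2 is below -GFs in each set, by 1.62, 1.23 and 0.99. The change of -1.28, a 2.43-fold lower level, had an SE of 0.58 and an adjusted p of 0.258. It was called with the block (adjusted p = 0.000643) and without set 1 (-1.11, adjusted p = 0.0165) or replicate 1 of the -GFs co-cultures alone (-1.88, adjusted p = 0.0703). The second probe of MYL9 gave -1.23.

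In mono-cultures MYL9 was at 12.02, 11.94 and 12.27 in -GFs medium, at 10.61, 10.95 and 11.31 with FGF2 and at 12.29, 11.74 and 12.19 with BMP4. The FGF2 arrays lay below all others, by a fitted 1.12 relative to -GFs (log2 change -1.12, SE 0.58, adjusted p = 0.245). The mono-culture arrays alone called it (adjusted p = 0.00552), as did the block (adjusted p = 0.000867). BMP4 left it at a change of 0.00 (95% interval -1.23 to 1.23). The FGF2 changes of both culture types differed by -0.16 (95% interval -1.90 to 1.58, adjusted p = 0.935). Against BMP4, FGF2 gave MYL9 changes of -1.65 in co-cultures (adjusted p = 0.130) and of -1.12 in mono-cultures (adjusted p = 0.237). The first was called with the block (adjusted p = 0.00013), without set 1 (-1.40, adjusted p = 0.00433) by quantile normalization without background correction (-1.39, adjusted p = 0.0897), and without replicate 3 of the FGF2 (-2.08, adjusted p = 0.0761) or replicate 1 of the BMP4 co-cultures (-2.17, adjusted p = 0.0526). The second was called with the block (adjusted p = 0.000841) and with the mono-culture arrays alone (adjusted p = 0.00533).

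The lower levels of ACTA2 and MYL9 with FGF2 went along with lower means of stromal markers. In co-cultures 9 of 10 stromal markers had a lower mean with FGF2, 1 of them called, with a median change of -0.46. Their summed level on the linear scale was 66519 to 75787 on the -GFs arrays and 50689 to 59363 on the FGF2 arrays, without overlap. In mono-cultures, which hold PA6 cells alone, 8 of 10 were lower (1 called), with a median of -0.43 and sums of 144263 to 155333 against 120152 to 143565. With BMP4 in co-cultures, 8 of 10 stromal markers had a lower mean too (1 called), with a median of -0.32. Their sums there were 44224 to 65993, also without overlap with the -GFs arrays. ACTA2 and MYL9 were higher there in all 3 sets, with changes of 0.35 and 0.37. Pluripotent markers in co-cultures summed to 77005 to 102965 without growth factors, to 111576 to 127589 with FGF2 and to 103324 to 116968 with BMP4. This list was mixed with FGF2, with 6 means higher (3 called) and 4 lower (1 called). The part of these markers in the changes of ACTA2 and MYL9 was not tested. Of the 5 pericyte and smooth muscle markers tested, 0 were called with FGF2 in co-cultures, where 3 means were higher and 2 lower, with a median of 0.06. In mono-cultures 4 means were higher and 1 lower, with a median of 0.19, and the lower one was called.

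The tropomyosins, which stabilise actin filaments, moved little with the growth factors and set the culture types apart. TPM1 was at 12.25, 12.88 and 12.89 in -GFs co-cultures, at 12.18, 12.57 and 12.70 with FGF2 and at 12.39, 12.90 and 13.06 with BMP4. In mono-cultures it was at 14.25, 14.25 and 14.33, at 14.24, 13.78 and 14.16 with FGF2, and at 13.78, 13.48 and 13.84 with BMP4. Every mono-culture array lay above every co-culture array. The difference in -GFs medium was -1.60 (SE 0.21, adjusted p = 3.94e-06), a 3.04-fold lower level in co-cultures.

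With BMP4, TPM1 of mono-cultures was below -GFs by 0.47, 0.77 and 0.50 in the 3 sets. All BMP4 arrays lay below all -GFs arrays, and the change of -0.58 (SE 0.21, unadjusted p = 0.0134 in limma, adjusted p = 0.205) was not called. Its second probe gave -0.65 (adjusted p = 0.0737), and the block gave an adjusted p of 0.00821, with both under the fold threshold. In co-cultures the BMP4 change was 0.11, and the difference between the culture types was 0.69 (95% interval 0.06 to 1.31, adjusted p = 0.447).

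TPM2 kept within a narrow band in each culture type. It was at 10.99, 11.12 and 11.11 in -GFs co-cultures, with a range of 10.79 to 11.38 over the FGF2 arrays and of 10.88 to 11.15 over the BMP4 arrays. Mono-cultures were at 12.62, 12.36 and 12.44 in -GFs medium, at 12.36 to 12.63 with FGF2 and at 12.45 to 12.73 with BMP4. Its changes with either growth factor lay between -0.05 and 0.09, with 95% intervals that reach from -0.36 to 0.40 at most. Co-cultures were lower than mono-cultures by 1.40 in -GFs medium (log2 difference -1.40, SE 0.15, adjusted p = 3.76e-07), without overlap. That value rests on ILMN_2487170, since the dim ILMN_2482209, detected on 3 of 18 arrays, gave 0.55 (adjusted p = 0.211) and the mean of both -0.42 (adjusted p = 0.0976).

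CTGF, a matricellular protein that binds growth factors and integrins, had the clearest response of the set, and it differed between the culture types. In mono-cultures it was at 9.58, 10.13 and 10.04 in -GFs medium. With FGF2 it was at 11.59, 12.41 and 12.09, and with BMP4 at 10.74, 10.67 and 10.51. The 3 groups did not overlap, and FGF2 stood above BMP4 and BMP4 above -GFs. Within the sets FGF2 raised CTGF by 2.01, 2.28 and 2.05. The change of 2.11 (SE 0.30, 95% interval 1.47 to 2.75, adjusted p = 0.000137) is a 4.32-fold higher level, and the second probe gave 2.09 (adjusted p = 0.000119). Over the alternatives it ranged from 1.92 to 2.33, with adjusted p-values of at most 0.0013. BMP4 gave 0.72 (SE 0.30, adjusted p = 0.301), higher in all 3 sets by 1.16, 0.54 and 0.47. FGF2 exceeded BMP4 by 1.39 (SE 0.30, adjusted p = 0.00435).

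In co-cultures CTGF was already high without growth factors, at 12.30, 12.67 and 13.29. FGF2 gave 11.81, 12.40 and 12.93, and BMP4 12.51, 12.73 and 13.28. The FGF2 arrays were lower in each set, by 0.49, 0.27 and 0.35, and the groups overlap. The change was -0.37 (SE 0.30, adjusted p = 0.606), and that with BMP4 was 0.08. The study reports CTGF as raised by FGF2 in co-cultures as well as in PA6 cells alone, and its methods list a real-time PCR probe for the gene. The arrays of day 3 showed that rise in mono-cultures only. The reason for this difference was not tested. The FGF2 change of co-cultures minus that of mono-cultures was -2.48 (SE 0.42, 95% interval -3.38 to -1.58, adjusted p = 0.00146). Without set 1 of the co-cultures it was -2.42 (adjusted p = 0.00266). In -GFs medium, co-cultures exceeded mono-cultures by 2.84 (SE 0.30, adjusted p = 4.07e-07), a 7.15-fold higher level, and the FGF2 arrays of mono-cultures reached into the range of the FGF2 co-cultures.

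CYR61, the closest relative of CTGF in the set, had the same signs with a larger spread. In mono-cultures it was at 7.40, 7.93 and 9.08 in -GFs medium, at 9.65, 9.52 and 9.98 with FGF2 and at 8.57, 8.43 and 8.50 with BMP4. All FGF2 arrays lay above all others, while BMP4 arrays fell within the range of the -GFs arrays. FGF2 raised it by 2.25, 1.59 and 0.90 in the sets, with a fitted change of 1.58 (SE 0.55, 95% interval 0.41 to 2.75, adjusted p = 0.069), a 2.99-fold higher level. The other probes gave 1.95 (adjusted p = 0.000469) and 1.70 (adjusted p = 0.0292). The call of the brightest probe was lost without replicate 1 of the -GFs mono-cultures (1.21, adjusted p = 0.257), without replicate 2 of them (1.48, adjusted p = 0.177) and without replicate 1, 2 or 3 of the FGF2 mono-cultures (1.45 to 1.68, adjusted p from 0.122 to 0.169). FGF2 exceeded BMP4 in mono-cultures by 1.22 (adjusted p = 0.165), called with the block (adjusted p = 0.00659), with the mono-culture arrays alone (adjusted p = 0.04) and as the mean of the kept probes (1.43, adjusted p = 0.0376).

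In co-cultures CYR61 was at 8.68, 8.91 and 10.43 in -GFs medium, at 7.60, 8.44 and 9.82 with FGF2 and at 8.73, 9.59 and 10.25 with BMP4. Set 3 was the highest in each medium. FGF2 arrays were lower in each set, by 1.08, 0.47 and 0.61, with a change of -0.72 (SE 0.55, adjusted p = 0.579). The other probes gave 0.05 and -0.52 here. The FGF2 change of co-cultures minus that of mono-cultures was -2.30 (SE 0.78, 95% interval -3.96 to -0.64, adjusted p = 0.076), and -1.90 and -2.22 by the other probes, called in each. Without set 1 it was -2.12 (adjusted p = 0.107). The call was also lost without any single one of 8 arrays, namely replicate 3 of the -GFs and replicates 1 and 2 of the FGF2 co-cultures, and replicates 1 and 2 of the -GFs and all 3 of the FGF2 mono-cultures (-2.40 to -1.76, adjusted p from 0.107 to 0.181). In -GFs medium the co-cultures were higher by 1.20 (SE 0.55, adjusted p = 0.0664), with overlapping arrays, and the other probes gave 0.95 (adjusted p = 0.0148, under the fold threshold) and 1.52 (adjusted p = 0.0121). That call was lost without replicate 3 of the -GFs co-cultures (0.65, adjusted p = 0.318) and without replicate 1 (0.83, adjusted p = 0.242) or replicate 2 (1.10, adjusted p = 0.147) of the -GFs mono-cultures. It was also lost by quantile normalization (0.96, adjusted p = 0.0552), without a filter on dim probes (adjusted p = 0.111) and at an adjusted p under 0.05.

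Over the tests of a difference in the FGF2 change between culture types, 2 of the 8 genes were called, CTGF and CYR61, against a background of 7.39%. For BMP4 the count was 0 of 8 (background 0.559%), with 1 unadjusted p under 0.05, that of TPM1. Between the culture types in -GFs medium, 5 of 8 were called, CTGF and CYR61 higher in co-cultures and MYL9, TPM1 and TPM2 lower, against 39.0% of all genes. The arrays did not overlap for 4 of the 8, against 70.4%, and the median of the 8 was -0.53 (-0.11 over all genes). MYL9 had the largest fall, -2.15 (SE 0.58, adjusted p = 0.0037), a 4.45-fold lower level, and the sets gave -3.30, -1.39 and -1.77. Without set 1 it was -1.55 (adjusted p = 2.5e-05). Stromal markers had a summed level of 66519 to 75787 in co-cultures and of 144263 to 155333 in mono-cultures, so that CTGF and CYR61 went against these markers and MYL9, TPM1 and TPM2 with them. Their part in the falls was not tested.

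SRF, the transcription factor whose targets many of these genes are, had about the same level in all 6 groups. In co-cultures it was at 11.18, 11.04 and 11.15 in -GFs medium, at 11.12, 10.90 and 10.94 with FGF2 and at 11.05, 11.05 and 11.09 with BMP4. In mono-cultures it was at 11.19, 11.01 and 11.24, at 10.99, 11.23 and 11.27 with FGF2, and at 11.25, 10.96 and 10.84 with BMP4. All 18 arrays lay between 10.84 and 11.27, and neighbouring groups overlapped. Its changes with a growth factor lay between -0.14 and 0.02, with 95% intervals that reach from -0.40 to 0.28 at most, and the culture types differed by -0.02 (95% interval -0.28 to 0.24).

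**Figure D4:**
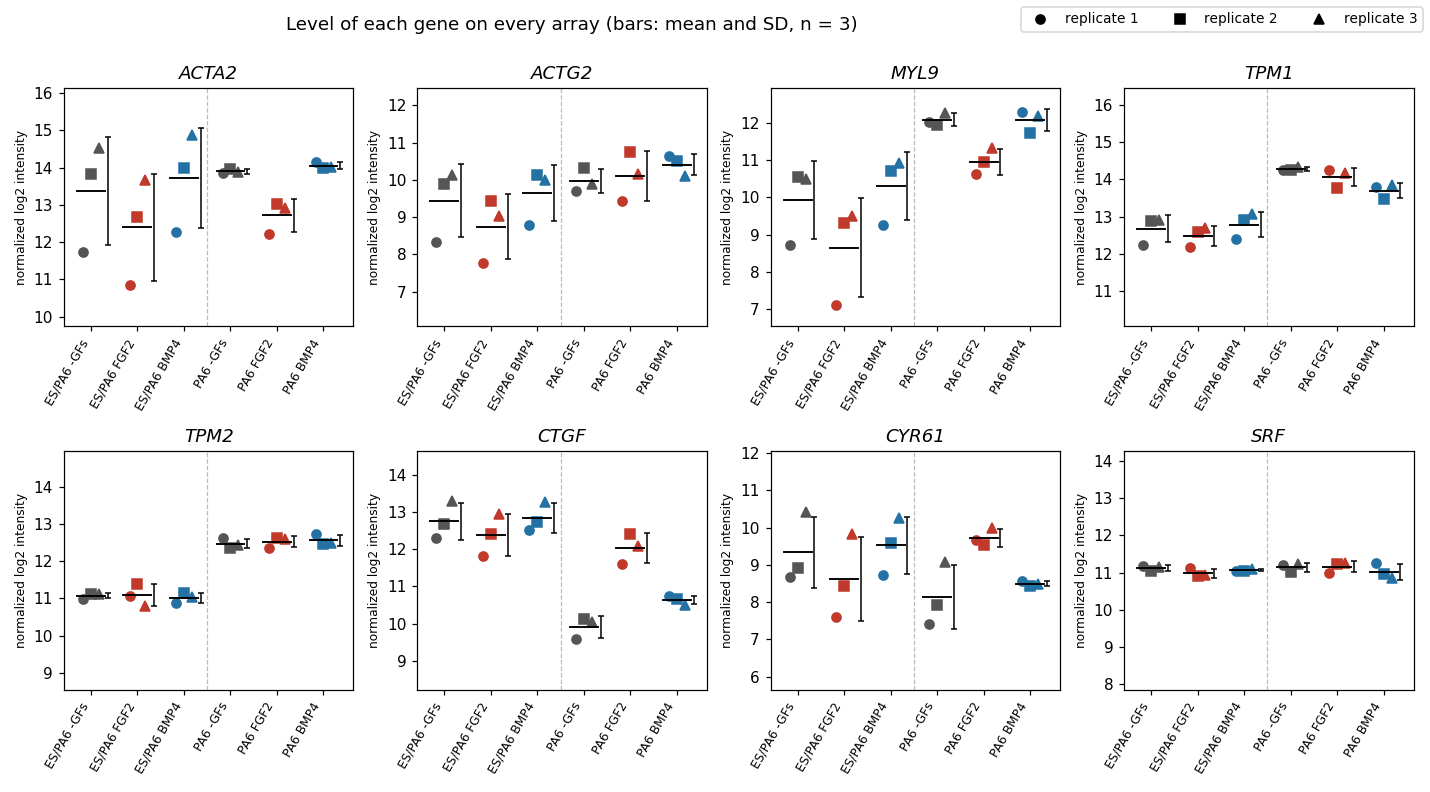
Normalized log2 intensity of the 8 tested genes on every array. Points are arrays (circle, square and triangle for replicate 1, 2 and 3), long bars the mean and error bars the SD of 3 arrays, and each panel spans the same number of log2 units around its own middle. CTGF and CYR61 are lowest in -GFs mono-cultures, TPM1 and TPM2 are higher in all mono-cultures, and SRF is level at about 11 in all groups.

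The order of the 6 groups by mean level was read for each gene on its own probe. For ACTA2 it ran from BMP4 mono-cultures (14.05 ± 0.09, SD, n = 3) over -GFs mono-cultures (13.90 ± 0.07), BMP4 co-cultures (13.72 ± 1.33), -GFs co-cultures (13.37 ± 1.45) and FGF2 mono-cultures (12.72 ± 0.43) to FGF2 co-cultures (12.40 ± 1.44). Neighbours overlapped except the first pair. For CTGF it ran from BMP4 co-cultures (12.84 ± 0.40) over -GFs co-cultures (12.75 ± 0.50), FGF2 co-cultures (12.38 ± 0.56), FGF2 mono-cultures (12.03 ± 0.41) and BMP4 mono-cultures (10.64 ± 0.11) to -GFs mono-cultures (9.92 ± 0.29). The last 3 of these groups were separate from each other, and the neighbours before them overlapped. MYL9 ran from -GFs mono-cultures (12.08 ± 0.17) to FGF2 co-cultures (8.64 ± 1.33), and its one gap lay between BMP4 mono-cultures (12.07 ± 0.30) and FGF2 mono-cultures (10.96 ± 0.35). TPM1 and TPM2 were highest in the 3 mono-culture groups, with a gap to the 3 co-culture groups. TPM1 had a further, narrow gap between -GFs mono-cultures (lowest 14.247) and FGF2 mono-cultures (highest 14.235), with a change of -0.22 (limma, adjusted p = 0.585). For ACTG2, CYR61 and SRF all neighbours in the order overlapped.

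Likeness of patterns was measured as the root mean square difference of the 6 group means, each gene centred on its own mean, where 0 is the same pattern. Among the 8 genes, TPM1 and TPM2 were the most alike (0.22), followed by ACTG2 with TPM2 (0.42), ACTG2 with TPM1 (0.43) and ACTA2 with ACTG2 (0.49). CTGF and CYR61 stood at 0.74, and MYL9 and CTGF were the least alike (2.20). Of all other genes tested, the nearest to ACTA2 were TMEM204 (0.23), STARD10 (0.23) and FZD7 (0.24), a Wnt receptor. Among the nearest to CTGF were LSS (0.17), lanosterol synthase, and LOC100040592 (0.17). For SRF, whose group means hardly vary, they were AMZ2 (0.03), LOC214900 (0.03) and 5730494N06RIK (0.03). These are descriptions over 6 group means.

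Other genes of the same pathways were counted in 5 lists with 93 genes, 71 of them tested. With FGF2 in co-cultures 2 were called, both higher, beside 3.34% of all genes. EGR2, an immediate early zinc finger factor, was at 9.67 ± 0.61 in -GFs medium and at 11.28 ± 0.60 with FGF2 (1.61, SE 0.45, adjusted p = 0.041), and it was higher in all 3 sets. Its call was lost without set 1 (1.54, adjusted p = 0.123), without replicate 3 of the -GFs co-cultures (1.26, adjusted p = 0.167) and without replicate 1 of the FGF2 co-cultures (1.32, adjusted p = 0.190). TEAD4, a DNA-binding partner of YAP and TAZ, went from 7.01 ± 0.60 to 8.40 ± 0.06 (1.39, adjusted p = 0.00102) with FGF2 and to 8.06 ± 0.08 (1.05, adjusted p = 0.0365) with BMP4. TEAD4 was the only gene of the lists called with BMP4 in co-cultures, beside 0.760% of all genes. That call was lost without set 1 (adjusted p = 0.132), without replicate 2 of the -GFs co-cultures (0.73, adjusted p = 0.113) and without replicate 1 of the BMP4 co-cultures (1.03, adjusted p = 0.106). It was also lost with the co-culture arrays alone (adjusted p = 0.248), by the mean of the TEAD4 probes (0.81, adjusted p = 0.173) and by quantile normalization (0.67, adjusted p = 0.0332). Quantile normalization also brought the TEAD4 change with FGF2 under the fold threshold (0.92, adjusted p = 0.000432). The 29 contractile genes had a median of -0.25 with FGF2 in co-cultures, with 22 lower means and 0 called.

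In mono-cultures FGF2 called 10 of the 71 genes, beside 5.27% of all genes. Of these 3 were higher. GADD45A, a stress-response gene that YAP can activate, rose by 2.25 (SE 0.29, adjusted p = 4.71e-05), JUNB, an AP-1 subunit, by 2.22 (adjusted p = 3.19e-06) and EGR2 by 1.82 (adjusted p = 0.0107). The 7 lower genes included EGR1, another immediate early SRF target, which fell by 2.16 (adjusted p = 0.000443). AMOTL2, a YAP target that restrains YAP, fell by 1.32 (adjusted p = 2.47e-05), LMOD1, a smooth muscle actin nucleator, by 1.24 (adjusted p = 0.000358; 0.99, under the fold threshold, by quantile normalization) and VGLL4, a competitor of YAP for TEAD, by 1.10 (adjusted p = 0.0041). The lists were mixed: immediate early targets had 2 higher and 2 lower calls among 6 tested, and the 13 YAP/TAZ targets had 1 higher and 2 lower. CTGF and CYR61 rose while AMOTL2 fell in the same arrays. BMP4 called 0 of the 71 in mono-cultures, beside 1.41% of all genes. There 46 of the 71 had a higher and 25 a lower mean, with a median of 0.10. Over all genes 8544 were higher and 7902 lower, with a median of 0.01.

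Between the culture types in -GFs medium, 30 of the 71 genes were called, 7 higher and 23 lower in co-cultures, beside 39.0% of all genes. Of the 13 other YAP/TAZ targets tested, which do not include CTGF and CYR61, 7 were called lower and 2 higher. Of the 29 contractile genes, 8 were lower and 2 higher, with a median of -0.49. The difference in the FGF2 change between culture types was called for 7 of the 71 genes, beside 7.39% of all genes. Of the genes named above, GADD45A (-2.28, adjusted p = 0.00189) and JUNB (-1.60, adjusted p = 0.00309) had the sign of CTGF, and EGR1 (2.22, adjusted p = 0.00912) and TEAD4 (1.21, adjusted p = 0.0211) the opposite one.

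**Figure D5:**
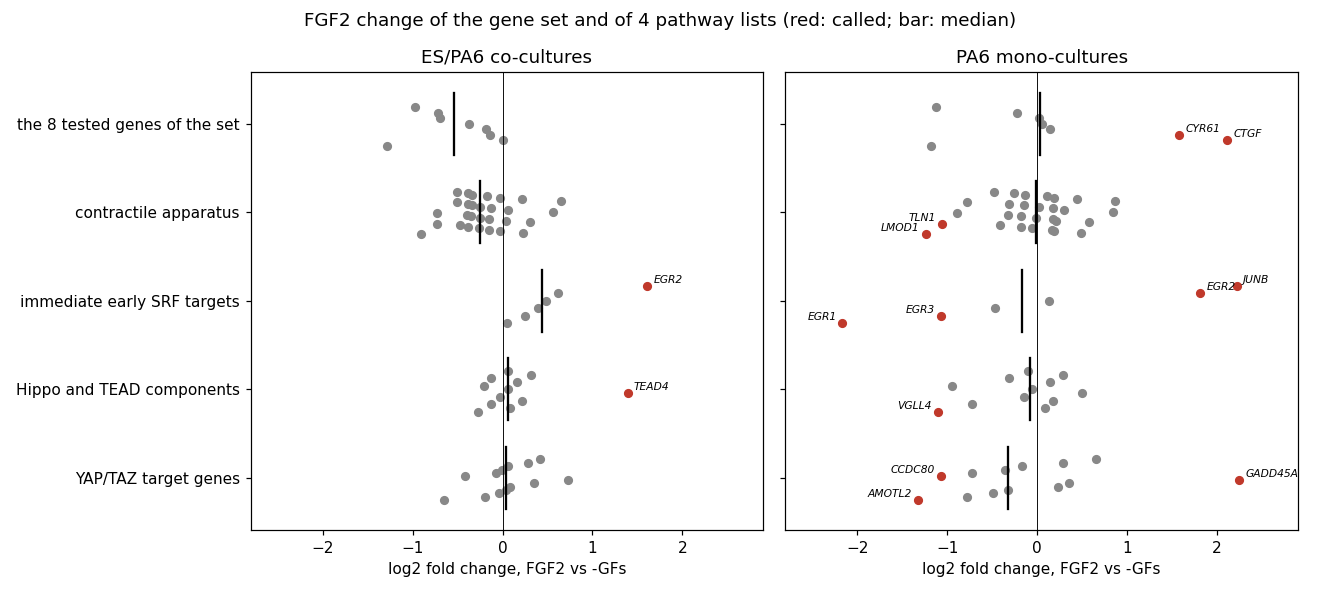
Log2 change with FGF2 against -GFs for the 8 tested genes and for the tested genes of 4 of the pathway lists, in co-cultures (left) and mono-cultures (right). Each point is a gene, red and named where called, and the black bar is the median of the row. Calls are 2 in the lists on the left, against 10 in the lists and 2 among the 8 genes on the right.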

How the data were processed

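The authors hybridised labelled cRNA to Illumina MouseWG-6 arrays and exported 1 intensity per probe with GenomeStudio 2011.01 (per the submitters' processing notes). The deposited intensity values are linear and not normalized, and each has a deposited detection p-value against negative control beads. No counts lie behind them, and precision is limited by how many arrays there are. Of the table, 5 stray lines after the 45281 probes were left out.

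Arrays were normalized with neqc (offset 16; limma 3.58.1, R 4.3.3; figures with matplotlib), which understates changes of dim genes. Probes were kept where 3 or more of the 18 arrays had a detection p under 0.05 (22987). The study's methods name that p but no minimum of arrays, and they used cubic spline normalization. As in them, the probe with the largest mean stood for its gene (16446 genes). A single limma model of 6 group means on all 18 arrays gave each of 9 comparisons, with moderated tests and Benjamini-Hochberg adjustment over all genes. Every adjusted p is from this model unless a setting is named. Genes were called at an adjusted p under 0.1 and a log2 change over 1. A permutation of 3 against 3 arrays cannot give a p below 0.1. The model was tested on simulated data with independent noise and, for each gene, the same spread in all groups. Those data held no shift between replicate sets and no difference in spread between the culture types, so the test does not cover these.

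The labels tie each replicate number to a set of wells, and the pairing was taken from them. Deviations of same-numbered arrays from their group means correlated at 0.325 to 0.521 over 9 pairs of co-cultures, only at 0.0628 to 0.164 over 9 pairs of mono-cultures and at -0.0248 to 0.175 across types. A model with a set term inside each culture type (the block) was tried too, as were quantile or median normalization, other detection filters, the mean of probes, only one culture type's arrays, trended and robust moderation, other thresholds and leaving out arrays. The members, pathway lists and marker lists were chosen with earlier results of these data known. Pathway genes are named where they are among the largest rises or falls called against -GFs. A nearest gene of CTGF and 1 pathway list on its own are not reported here.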

Additional observations from a re-analysis of the deposited data

Results flagged for a closer look

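The FGF2 change of CTGF differed between the culture types by -2.48 (limma interaction, adjusted p = 0.00146), since it rose in all 3 sets of mono-cultures and was lower in all 3 sets of co-cultures. The same test gave -2.30 for CYR61 (adjusted p = 0.076). The probe that stood for CYR61 had the same signs in all 3 sets of each culture type. Its probe ILMN_1235571 was instead slightly higher with FGF2 in each co-culture set, at 6.71, 6.77 and 7.73 against 6.66, 6.72 and 7.67. The call of CYR61 was lost in 12 of 23 alternatives.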

How the results depend on the processing

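Of 1514 values of single genes under the alternatives, 1386 kept their sign and side of the threshold, 37 lost a call, 21 gained one and 70 changed sign. None of those 70 was a called value, and the largest was 0.61. Apart from 56 single-array omissions, the sign changes were these 14. Median scaling gave -0.00078 for SRF with FGF2 in mono-cultures, 0.051 for SRF and 0.045 for TPM2 with FGF2 against BMP4 in co-cultures and mono-cultures, and 0.014 for MYL9 and 0.030 for TPM2 in the difference of FGF2 changes. That difference was 0.026 for MYL9 by quantile normalization, and -0.021 for ACTA2 and 0.015 for TPM2 by the mean of probes. Without set 1 of the co-cultures it was 0.0082 for MYL9 and -0.027 for TPM1, TPM2 gave -0.033 with FGF2 and -0.0097 against BMP4, and ACTA2 and ACTG2 gave 0.28 and 0.037 between the culture types. The causes were not tested.

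Leaving out 1 array moved the sign of these values, with ranges, for FGF2 in co-cultures, TPM2 -0.14 to 0.15, for BMP4 in co-cultures, ACTA2 -0.46 to 1.08, ACTG2 -0.36 to 0.63, MYL9 -0.22 to 0.89, TPM1 -0.10 to 0.30, CTGF -0.14 to 0.35, CYR61 -0.18 to 0.73 and TPM2 -0.12 to 0.019, for FGF2 in mono-cultures, TPM2 -0.0035 to 0.14, SRF -0.051 to 0.10 and ACTG2 -0.18 to 0.49. The same omissions gave, for BMP4 in mono-cultures, CYR61 -0.0052 to 0.83 and MYL9 -0.11 to 0.17, for FGF2 against BMP4 in co-cultures, TPM2 -0.093 to 0.20, for FGF2 against BMP4 in mono-cultures, ACTG2 -0.62 to 0.047 and TPM2 -0.086 to 0.052. They further gave, for the culture types, ACTA2 -1.11 to 0.28, ACTG2 -0.87 to 0.037 and SRF -0.088 to 0.025, for the difference of FGF2 changes, ACTA2 -0.60 to 0.99, TPM1 -0.18 to 0.19, MYL9 -0.76 to 0.61 and TPM2 -0.20 to 0.10, for the difference of BMP4 changes, ACTA2 -0.61 to 0.92, MYL9 -0.22 to 0.89, ACTG2 -0.80 to 0.19, CYR61 -0.65 to 0.37 and SRF -0.023 to 0.18.

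The number of the 8 genes called with FGF2 in co-cultures rose from 0 to 1 with the replicate block or without set 1. In mono-cultures it went from 2 to 4 with the block or with these arrays alone, and to 1, CTGF, without a filter or at an adjusted p under 0.05. Against BMP4, co-cultures went from 0 to 1 by quantile normalization and to 2 with the block or without set 1, and mono-cultures from 1 to 2 by the mean of probes and to 4 with the block or with these arrays alone. The difference of FGF2 changes went from 2 to 1, with CYR61 lost, without a filter, with trended and robust moderation, at an adjusted p under 0.05 and without set 1. Leaving out 1 array gave 0 to 1, 1 to 2, 0 to 1, 1 and 1 to 2 calls in these comparisons, 4 to 5 between the culture types and 0 for BMP4. The pathway lists had 2 calls with FGF2 in co-cultures, 1 by quantile normalization or detection on all 18 arrays, 8 without a fold threshold and 1 to 3 without 1 array. With BMP4 they had 1 call there, 0 with detection on all 18 arrays, the mean of probes or these arrays alone, 4 with the block, 2 with trended and robust moderation and 0 to 2 without 1 array. In mono-cultures they had 10 calls with FGF2, 26 without a fold threshold and 8 to 11 without 1 array, and with BMP4 0, 3 and 0.

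The replicate block changed the calls of ACTA2, MYL9 and CYR61 given in the report and no other call of the 8 genes. Inside each culture type it cannot be fitted to the difference between the types, where a block shared by both, added after the data were seen like the omission of set 1, left 5 of 8 genes called.

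Over all genes, called numbers moved from 550 to between 125 and 1489 (FGF2, co-cultures), from 125 to 10 and 280 (BMP4), from 867 to 459 and 3083 (FGF2, mono-cultures), from 232 to 113 and 632 (BMP4), from 469 to 122 and 1230 and from 957 to 522 and 3332 (FGF2 against BMP4), from 6408 to 3668 and 11712 (culture types), from 1216 to 528 and 2467 and from 92 to 42 and 305 (differences of changes). Detection on all 18 arrays, which tests 10071 genes, gave most of the low numbers and no fold threshold most of the high ones. Dim probes such as those of TAGLN and CNN1 are limited by the background.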
